A study of Mus musculus with 12 samples.

Results

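The Hist1h genes are the replication-dependent histone genes of the large cluster on mouse chromosome 13. They were taken as the protein-coding genes of the GENCODE M21 annotation on that chromosome whose symbol begins with Hist1h, which gave 54 of the 21938 protein-coding genes. The 54 members comprised 6 genes for the linker histone H1, 13 for H2A, 15 for H2B, 9 for H3 and 11 for H4. The accessible regions within 1 kb of a transcription start site (TSS) of these genes numbered 40 of 170548, and a further 155 regions lay between the first and the last member without touching those windows.

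Core histones H2A, H2B, H3 and H4 form the particle around which DNA is wrapped, and H1 binds the DNA between particles. Each histone is encoded by many small intronless genes, so that enough protein can be made during DNA replication. Their transcription rises in S phase with the coactivator NPAT, and their mRNAs end in a conserved stem-loop that is bound by SLBP instead of a poly(A) tail. Mouse embryonic stem (ES) cells divide quickly and spend much of their cycle in S phase.

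Accessibility was measured by ATAC-seq, in which the Tn5 transposase inserts sequencing adapters into open chromatin. The 12 samples formed 6 groups of 2 replicates. ZHBTc4 ES cells, whose only source of OCT4 is a Pou5f1 transgene that doxycycline (dox) shuts off, were sampled without dox (OCT4 ON) and after 24 hr of 1 µg/ml dox (OCT4 OFF). 2TS22C ES cells, with a dox-repressible Sox2 transgene in place of the endogenous gene, were sampled without dox (SOX2 ON) and with dox (SOX2 OFF) at 26 hr and at 40 hr. All cells were grown in serum with LIF and the inhibitors known as 2i, and each cell line is a single engineered line. The authors deposited a single list of regions merged over these experiments, with a start and an end for each and 0 columns of single samples. Hence the values below are positions and widths without a replicate error, the depth behind a region is unknown, the dox-treated and untreated cells cannot be compared, and each share is a description over genes and not a test. A region in the list was called as a peak in at least part of the pooled material, and the absence of a region does not show closed chromatin. TSSs of all 8 ES cell marker genes examined, Pou5f1, Sox2 and Nanog among them, lay under a region, against 68.9% of all protein-coding genes. Of 8 genes that mark other cell types, 4 had a region within 1 kb, namely Cd3e, Cdx2, Gfap and Myod1, and the other 4, Alb, Hbb-bt, Ins2 and Krt5, had none.

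Of the 54 Hist1h genes, 49 (90.7%) had a region no farther than 1 kb from a TSS, against 74.7% of all protein-coding genes. With 1 TSS per gene the members' share stayed at 90.7% and that of all genes was 70.1%. Of the members, 50 have a single annotated TSS. At 46 members (85.2%) the region covered a TSS itself, against 68.9% of all protein-coding genes. All 9 H3 genes and all 11 H4 genes had a region. The share was 5 of 6 for H1, 11 of 13 for H2A and 13 of 15 for H2B. Thus the 5 members without a region were an H1 gene, a pair of H2A genes and a pair of H2B genes.

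**Figure D1:**
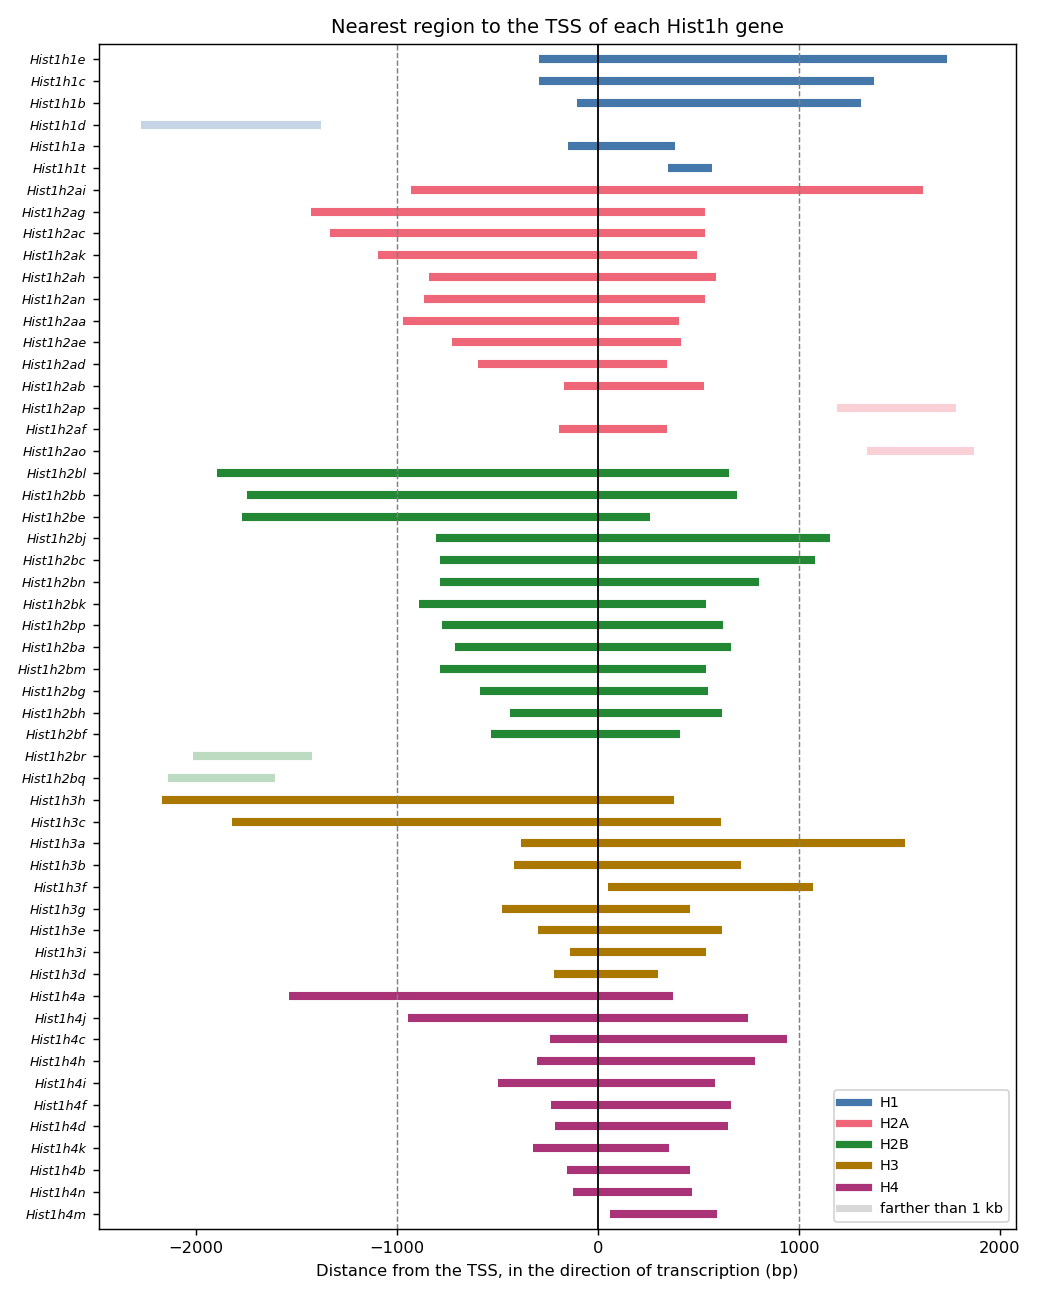
Extent of the nearest region (bars) around the TSS of each of the 54 Hist1h genes, in bp along the direction of transcription, colored by histone type, with dashed lines at 1 kb. Pale bars mark the 5 genes whose nearest region begins farther than 1 kb away, and at 46 genes the bar crosses the TSS.

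Regions at Hist1h genes were wide in comparison with the genes themselves. The nearest region had a median width of 1321 bp over the 49 genes (quartiles 913 and 1868 bp, range 222 to 2549 bp), while the median over all protein-coding genes with a region was 1069 bp (quartiles 785 and 1350 bp). At 24 of the 49 genes the region was at least as wide as the upper quartile of all genes, and at 10 it was narrower than the lower quartile. Counting each region once, instead of once per gene, lowered the median to 1083.5 bp over 36 regions, close to that of all genes. The members are short, with a median length of 532 bp, and 41 of them span at most 1 kb. The whole of the gene lay under regions for 24 of these 41 members, whereas this held for 74 of all 718 protein-coding genes of that length (10.3%) and for 39.6% of the 187 short genes with a region nearby. Both of those sets include the members, so 24 of the 74 genes are members themselves.

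Widths differed between histone types, with broad overlap. Median width was 1411 bp for H1, 1399 bp for H2A, 1430 bp for H2B, 1020 bp for H3 and 896 bp for H4. A region shared by genes of different types counted for each of them, so these medians are not separate measurements. Among H1 genes, Hist1h1e had the widest region (2034 bp) and Hist1h1t the narrowest (222 bp). Hist1h2ai had the widest among H2A genes (2549 bp) and Hist1h2af the narrowest (541 bp). Among H2B genes the range ran from 942 bp at Hist1h2bf to 2549 bp at Hist1h2bl, so that none of the 13 fell in the lower quartile of all genes. For H3 the widest region was at Hist1h3h (2549 bp) and the narrowest at Hist1h3d (516 bp), and for H4 they were at Hist1h4a (1911 bp) and Hist1h4m (534 bp).

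**Figure D2:**
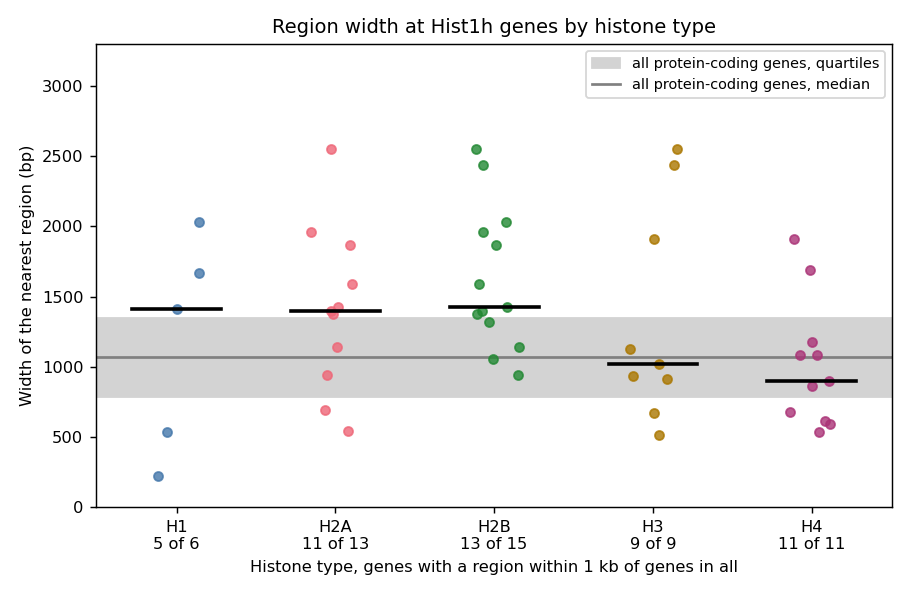
Width in bp of the region nearest to the TSS for each Hist1h gene with a region within 1 kb (points), by histone type, with the median as a black line. The grey band spans the quartiles 785 and 1350 bp of all protein-coding genes around their median of 1069 bp, and the medians of H1, H2A and H2B sit above the band while those of H3 and H4 sit inside it.

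The position of the regions relative to the TSS also differed between histone types. At the 4 H1 genes with a covered TSS the region reached a median of 222 bp upstream and 1341 bp downstream, over the H1 coding sequence, which is longer than those of the core histones. H4 regions reached 270 bp upstream and 616 bp downstream, and 8 of 10 extended farther into the gene than away from it. H3 regions were closer to even, with 399 bp upstream and 576 bp downstream, and 5 of 8 extended farther downstream. In contrast, H2A regions reached 867 bp upstream and 526 bp downstream, H2B regions reached 784 and 624 bp, and only 3 of 11 H2A and 4 of 13 H2B regions extended farther downstream.

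That difference coincided with the arrangement of H2A and H2B genes, which often stand back to back. Of the 12 divergent neighbors with TSSs at most 1 kb apart, 11 were an H2A gene with an H2B gene, with 176 to 306 bp between their TSSs (median 268 bp). A single region covered both TSSs in 9 of these 11 pairs, and in the other 2 pairs neither gene had a region. Among all 733 divergent protein-coding pairs at this distance, 671 (91.5%) lay under a single region, so that the share among histone pairs was no higher. In all, 16 regions lay within 1 kb of more than 1 member, 30 members were near such a region, and 12 of the 16 covered the TSSs of at least 2 members. These 16 regions had a median width of 1414.5 bp, and the 24 regions near a single member had a median of 676 bp. A wider region is more likely to lie near several TSSs, so the 2 medians are not independent of the grouping. The 24 also include regions of 183, 287, 463 and 498 bp that were not the nearest region of any member.

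The widest region of all members, 2549 bp, covered the TSSs of 3 genes, Hist1h2bl, Hist1h2ai and Hist1h3h. Another region of 1911 bp lay near Hist1h4a, Hist1h3a and Hist1h1a and covered the TSSs of the first 2, while Hist1h1a had a nearer region of 536 bp over its own TSS. The remaining shared regions held a pair of members each: Hist1h2ak with Hist1h2bn (1589 bp), Hist1h2an with Hist1h2bp (1399 bp), Hist1h2ah with Hist1h2bk (1430 bp), Hist1h2ag with Hist1h2bj (1962 bp), Hist1h2ae with Hist1h2bg (1140 bp), Hist1h2bf with Hist1h2ad (942 bp), Hist1h2ac with Hist1h2bc (1868 bp) and Hist1h2ba with Hist1h2aa (1375 bp) were H2A and H2B partners. Of the others, Hist1h3c shared a region of 2439 bp with Hist1h2bb, and Hist1h1e a region of 2034 bp with the distant TSSs annotated for Hist1h2be. Hist1h2bh with Hist1h3f, and Hist1h2ab with Hist1h3b, had 2 shared regions per pair, of 1053 and 1020 bp and of 694 and 1129 bp. Over all 40 regions at members, whether shared or not, genes that are no members also had TSSs under them: 10 genes annotated as miRNA, 3 as pseudogenes and 1 as lincRNA. Hist1h2aj, an H2A pseudogene in this annotation, lay under the 1321 bp region of Hist1h2bm.

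Sequences of the stretches between the annotated starts are shown for the pair with the widest region and for an H2A and H2B pair with an octamer. The octamer, ATTTGCAT, is the site through which OCT1, the product of Pou2f1, activates H2B genes, and OCT4 can bind the octamer as well. Each stretch is read in the direction of the H2B gene, from GRCm38.p6, with capitals for the octamer, the CCAAT box (CCAAT, or ATTGG on the other strand), the TATA box (TATAAA, or TTTATA on the other strand) and the E2F, H1 and H4 sites described below.
The first lies at chr13:21716144-21716421 on the minus strand, and the second at chr13:23683949-23684198 on the plus strand.
Hist1h2bl and Hist1h2ai: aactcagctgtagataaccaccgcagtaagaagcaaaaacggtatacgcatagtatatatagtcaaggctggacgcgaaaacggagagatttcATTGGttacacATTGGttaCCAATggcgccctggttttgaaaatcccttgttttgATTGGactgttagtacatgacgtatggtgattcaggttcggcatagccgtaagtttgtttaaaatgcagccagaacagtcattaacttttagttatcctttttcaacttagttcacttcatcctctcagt
Hist1h2bc and Hist1h2ac: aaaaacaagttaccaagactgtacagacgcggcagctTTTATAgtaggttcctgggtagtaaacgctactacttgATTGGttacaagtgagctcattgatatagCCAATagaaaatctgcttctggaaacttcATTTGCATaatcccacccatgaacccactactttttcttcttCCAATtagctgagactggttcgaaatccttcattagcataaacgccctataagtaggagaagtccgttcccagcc
The stretch of Hist1h2bl and Hist1h2ai held 4 CCAAT boxes and no octamer, under a region of 2549 bp. That of Hist1h2bc and Hist1h2ac held 3 CCAAT boxes, 1 TATA box and 1 octamer, under a region of 1868 bp.

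The octamer was searched in the 300 bp from 250 bp before to 50 bp after each TSS, on both strands. It was present at 6 of 15 H2B genes and 5 of 13 H2A genes and in no window of the other 3 types, against 1.57% of all protein-coding genes with 1 TSS each (4.13% with all TSSs). Because partners share the stretch between them, these 11 windows held 7 distinct sites, all of which lay inside a region. The H2B genes with an octamer were Hist1h2bm, Hist1h2bk, Hist1h2bg, Hist1h2bc, Hist1h2bb and Hist1h2ba, with the first base of the site between positions -164 and -79 from the start codon. All 6 had a region, and so did 7 of the 9 H2B genes without an octamer. The SOX element CATTGT was present at 4 of 54 members (7.41%), against 10.7% of all genes. Hist1h2ah and Hist1h2bk held the same match between them, and the matches of Hist1h2af and Hist1h2ag overlapped the start codon.

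CCAAT boxes, bound by NF-Y, were present at all 13 H2A and all 15 H2B genes, at 8 of 9 H3 and 5 of 6 H1 genes, but at only 3 of 11 H4 genes, against 39% of all protein-coding genes. H4 genes carried instead the GGTCCG core of the element bound by HINFP, at 10 of 11 genes, which compares with 9.6% of all genes. In those 10 genes its first base lay between positions -85 and -55 from the start codon. The H1 box, AAACACA, was present at 4 of 6 H1 genes and at 6.4% of all genes. TATA boxes were present at 31 of 54 members (12.6% of all genes) and E2F sites, any of TTTCCCGC, TTTCGCGC, TTTGCCGC and TTTGGCGC, at 12 of 54 (2.79%). As with the octamer, a match between H2A and H2B partners could count for both genes, so these counts exceed the number of distinct sites. All 4 H2B genes with an E2F site shared it with their H2A partner. The E2F matches of Hist1h4k and Hist1h4d lay after the start codon. GC content of the window had a median of 45.3% in members and 55% in all genes, while the median number of CpGs was 11.5 and 11. The windows of Hist1h2be and Hist1h1d lay at annotated TSSs far from their start codons. The CCAAT matches counted for Hist1h2be began between positions -35320 and -35227 from its start codon. The TATA matches counted for Hist1h1d began between positions -1974 and -1847. For these genes the counts therefore do not describe the sequence just before the coding exon. A match says only that these letters stand in the window. The factors' binding was not measured in these files.

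**Figure D3:**
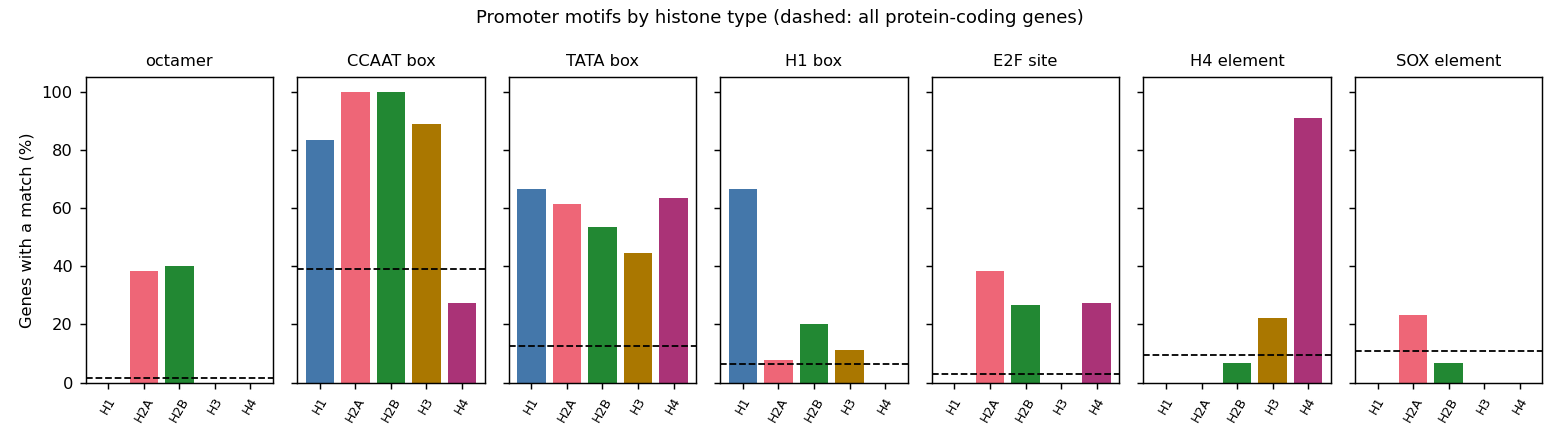
Share of genes in percent (bars) with at least 1 match to each motif in the 300 bp window around the TSS, by histone type. The dashed line is the share of all protein-coding genes with 1 TSS each, which runs from 1.57% for the octamer to 39% for the CCAAT box, and the H4 element stands at 10 of 11 H4 genes.

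The 250 bp before the annotated TSS are shown for the member with the widest region among H1, H3 and H4 genes, together with Hist1h4j, the H4 gene with the widest region among those whose 250 bp hold the H4 element. They lie at chr13:23622559-23622808 on the minus strand (Hist1h1e), chr13:21717409-21717658 on the plus strand (Hist1h3h), chr13:23761231-23761480 on the minus strand (Hist1h4a) and chr13:21734814-21735063 on the plus strand (Hist1h4j), with capitals as above.
Hist1h1e: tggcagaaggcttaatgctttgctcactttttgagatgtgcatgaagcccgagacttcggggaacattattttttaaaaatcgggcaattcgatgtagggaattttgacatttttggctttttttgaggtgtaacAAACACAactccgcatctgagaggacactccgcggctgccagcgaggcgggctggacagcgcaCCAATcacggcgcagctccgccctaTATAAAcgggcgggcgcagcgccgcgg
Hist1h3h: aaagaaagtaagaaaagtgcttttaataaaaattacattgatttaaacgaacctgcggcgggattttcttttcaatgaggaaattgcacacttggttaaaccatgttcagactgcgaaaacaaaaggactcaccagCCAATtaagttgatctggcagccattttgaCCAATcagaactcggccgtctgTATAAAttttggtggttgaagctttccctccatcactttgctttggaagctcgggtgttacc
Hist1h4a: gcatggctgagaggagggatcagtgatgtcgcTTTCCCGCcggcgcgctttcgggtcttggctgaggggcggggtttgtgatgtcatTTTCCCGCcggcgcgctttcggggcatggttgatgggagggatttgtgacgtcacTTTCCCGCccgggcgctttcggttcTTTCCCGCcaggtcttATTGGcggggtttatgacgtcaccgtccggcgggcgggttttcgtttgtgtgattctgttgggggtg
Hist1h4j: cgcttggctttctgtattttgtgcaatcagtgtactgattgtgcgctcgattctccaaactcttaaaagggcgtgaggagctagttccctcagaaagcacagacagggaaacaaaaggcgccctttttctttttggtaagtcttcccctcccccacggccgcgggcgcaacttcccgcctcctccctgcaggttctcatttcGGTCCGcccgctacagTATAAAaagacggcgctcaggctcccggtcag
Hist1h1e held the H1 box, a CCAAT box and a TATA box in that order toward the TSS. Hist1h3h held 2 CCAAT boxes and a TATA box. Hist1h4a, the single H4 gene without the H4 element in its window, held 4 E2F sites, all TTTCCCGC, and 1 CCAAT box. Hist1h4j held the H4 element followed by a TATA box.

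The 4 core histone genes without a region form 2 pairs in the first part of the cluster, Hist1h2bq with Hist1h2ao and Hist1h2br with Hist1h2ap. The nearest region began 1608 bp from the TSS of Hist1h2bq, 1340 bp from that of Hist1h2ao, 1425 bp from that of Hist1h2br and 1189 bp from that of Hist1h2ap. Those nearest regions belonged to the H4 genes beside the pairs, Hist1h4m (534 bp, beginning 59 bp after its TSS) and Hist1h4n (593 bp, over its TSS), which had the narrowest regions of their type. Both stretches between starts, at chr13:21810198-21810464 on the minus strand and chr13:21833508-21833742 on the plus strand, are shown in the direction of the H2B gene.
Hist1h2bq and Hist1h2ao: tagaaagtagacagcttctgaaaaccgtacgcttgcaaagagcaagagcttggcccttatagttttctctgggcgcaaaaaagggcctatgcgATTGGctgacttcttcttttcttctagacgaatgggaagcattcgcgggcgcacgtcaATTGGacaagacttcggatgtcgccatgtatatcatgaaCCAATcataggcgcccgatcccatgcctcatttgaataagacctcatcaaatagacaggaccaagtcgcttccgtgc
Hist1h2br and Hist1h2ap: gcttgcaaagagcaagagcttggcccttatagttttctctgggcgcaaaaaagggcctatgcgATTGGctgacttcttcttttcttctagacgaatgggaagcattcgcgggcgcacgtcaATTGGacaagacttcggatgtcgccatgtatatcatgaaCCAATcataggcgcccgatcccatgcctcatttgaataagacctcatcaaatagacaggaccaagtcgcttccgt
Each held 3 CCAAT boxes and no octamer, TATA box or E2F site. From start codon to start codon, all 295 bases between the genes were identical in both pairs, which stand 23.5 kb apart in opposite orientation.

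The identity extended beyond the promoters. Reads in this study were 75 nt long, so the share of 75-mers within 1 kb of the TSS that occur again in the genome, on either strand, was taken as a measure of sequence to which a single read could not be assigned uniquely. It was 100% at each of Hist1h2bq, Hist1h2ao, Hist1h2ap and Hist1h2br. Nearly all of these 75-mers recur in the partner copy, 99.9% between Hist1h2bq and Hist1h2br and 98.4% between Hist1h2ao and Hist1h2ap. Hist1h4m and Hist1h4n had 89% and 86.4% repeated 75-mers, and their regions were 85.4% and 86.5% repeated. Over the 48 other members the share ran from 0 to 32.1%, and of these Hist1h1d alone had no region. Repeats were common among members, of which 49 of 54 had at least 1 repeated 75-mer, against 256 of the 784 other protein-coding genes on the chromosome. Of 24 such other genes with at least 50% repeated 75-mers, 9 had a region, and of the remaining 760, 590 did. How reads that align to several places were treated is not given in the sources used here, and the part of repeated sequence in the missing regions was not tested.

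**Figure D4:**
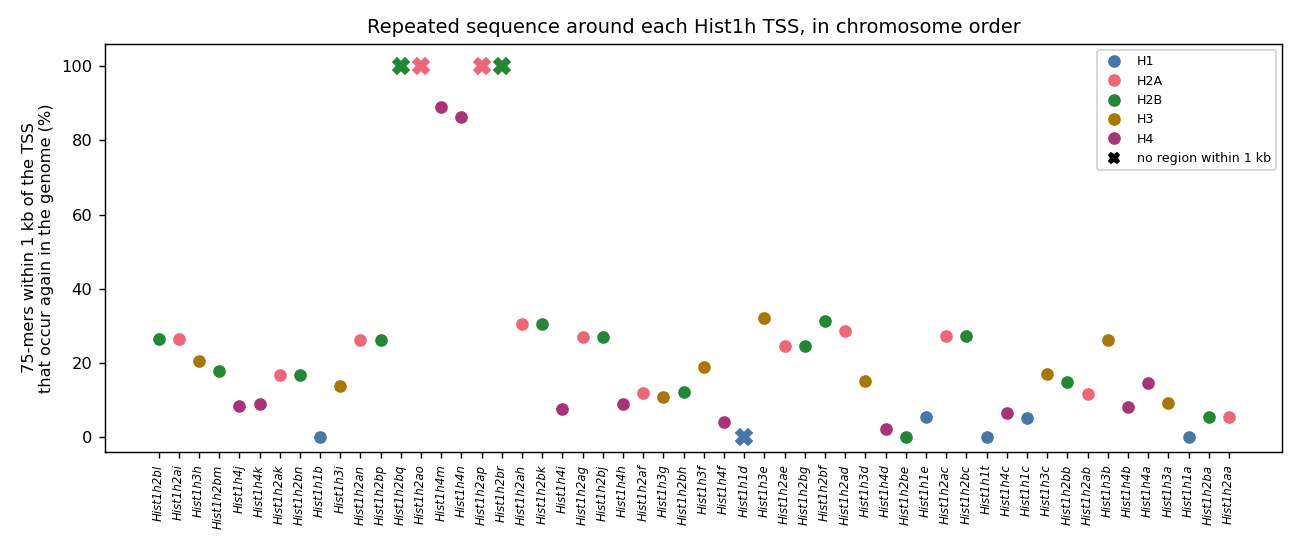
Share in percent of the 75-mers within 1 kb of the TSS that occur again in the genome, for the 54 Hist1h genes in chromosome order, colored by histone type. Crosses mark the 5 genes without a region within 1 kb, of which 4 stand at 100% and Hist1h1d at 0, while the 49 genes with a region run from 0 to 89%.

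The fifth member without a region, Hist1h1d, is annotated with a TSS 1828 bp before its start codon, and the nearest region, that of Hist1h4f (896 bp), began 1380 bp upstream of that TSS. A region of 1591 bp covered the start codon, and it also covered the start given for the gene by RefSeq. Hist1h2be is annotated with TSSs more than 35 kb from its coding exon, under the region of Hist1h1e, and another region of 1826 bp covered its start codon. When distance was counted from the start codon instead of the TSS, 50 of 54 members had a region and all 6 H1 genes were among them. The 4 genes without a region were then Hist1h2bq, Hist1h2ao, Hist1h2ap and Hist1h2br. Elsewhere the annotated TSS lay close to the start codon, within 100 bp at 48 members, and at 10 members it was the start codon itself.

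Members with transcription known mainly from the testis were also near regions. Hist1h2ba and Hist1h2aa, which encode H2B and H2A variants of male germ cells, stood alone at the far end of the cluster under a shared region of 1375 bp that covered both TSSs. Hist1h1t, the testis H1 gene, had a region of 222 bp that began 348 bp after its TSS, and its TSS was not covered. In width this was the lowest value among the 49 members with a region.

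The members fall into 2 subclusters separated by 1.49 Mb. The first holds 23 genes in 0.328 Mb, of which 19 had a region, and the second holds 31 genes in 0.404 Mb, of which 30 had a region. With regions at members included, the first subcluster held 70 regions (213 per Mb), the second 42 (104 per Mb) and the gap 83 (55.8 per Mb), against 69.7 regions per Mb over all of chromosome 13. Regions apart from members numbered 55 in the first subcluster (168 per Mb), 18 in the second (44.6 per Mb) and 82 in the gap (55.1 per Mb). These 155 regions had a median width of 476 bp, against 1036.5 bp for the 40 regions at members and 379 bp for all regions.

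Among the 155 regions, 56 lay over tRNA genes, which are transcribed by RNA polymerase III, 26 of them in the first subcluster, 30 in the gap and 0 in the second subcluster. The span holds 77 tRNA genes of the RefSeq annotation, and 72 of them (93.5%) lay under a region. The share was 275 of 403 (68.2%) over all chromosomes but 92.4% over chromosome 13, close to that of the span. Both larger sets include the 77 genes of the span. All 11 tRNA-Ser and all 10 tRNA-Val genes of the span were covered. Regions over tRNA genes had a median width of 630 bp. A further 8 regions lay near the TSS of another protein-coding gene and 5 near that of another annotated gene, while 86 lay near none of these and had a median width of 414 bp. The 86 include the regions of 1591 and 1826 bp over the start codons of the members Hist1h1d and Hist1h2be. These regions counted as apart because they lay farther than 1 kb from the annotated TSSs of the members. Of the 49 other protein-coding genes in the span, 8 (16.3%) had a region within 1 kb, all of them over a TSS.

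**Figure D5:**
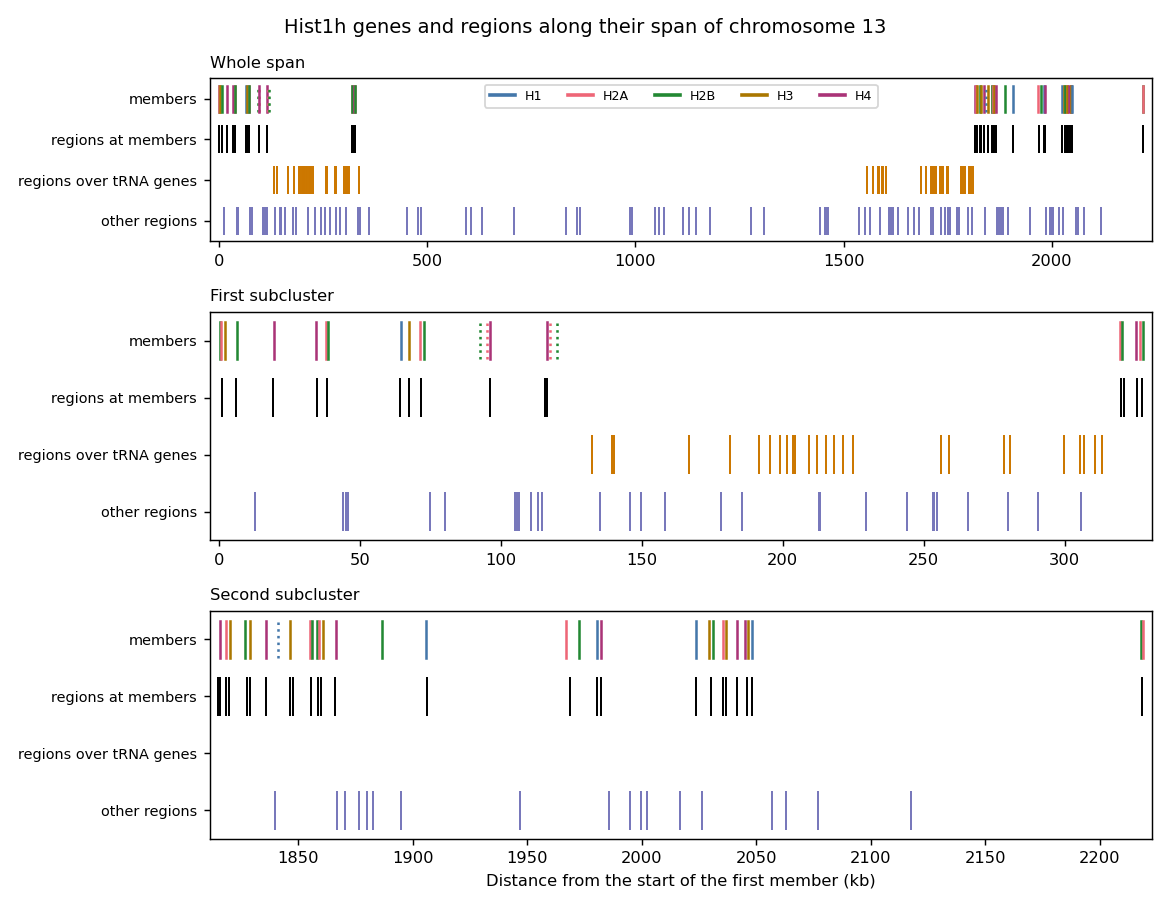
Positions of the 54 Hist1h genes (top row of each panel, colored by histone type, dotted where no region lies within 1 kb) and of the regions at members, over tRNA genes and elsewhere, in kb from the start of the first member. The upper panel shows the span of 2.22 Mb and the lower panels its subclusters, with 26 regions over tRNA genes in the first and 0 in the second.

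Histone genes outside this cluster were compared in the same way. All 13 replication-dependent histone genes on other chromosomes, whose symbols begin with Hist2h, Hist3h or Hist4h, had a region within 1 kb, with a median width of 1522 bp (range 158 to 2052 bp). All 11 replication-independent genes had a region over a TSS, with a median width of 1341 bp, among them H3f3a and H3f3b, which encode H3.3, and H2afz, which encodes H2A.Z. All 20 genes for regulators of histone gene expression had a region over a TSS, with a median width of 1219 bp. Over all protein-coding genes, 74.7% had a region within 1 kb and 68.9% had one over a TSS, with a median width of 1069 bp. Npat, the S phase coactivator, had 1430 bp, Slbp, the stem-loop binding protein, 1149 bp, Hinfp, the H4 activator, 804 bp, and Pou2f1, for OCT1, 223 bp, the narrowest of the 20.

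The stem-loop at the mRNA end was searched in the 150 bp after the coding sequence, because it defines the replication-dependent class. It was found in exact form, GGCTCT and its complement AGAGCC around 4 bases, at 39 members. With C or T at the fourth base and A or G opposite, 48 of 54 members had it, at 27 to 59 bp after the coding sequence (median 35 bp). The other 6 had neither form in the stretch searched. That stretch began after the last coding base annotated over all transcripts of a gene. A stem-loop elsewhere would be missed, so its absence here does not show that a gene lacks one. The form found most often, at 30 members of the other 4 types, and the form found most often among H4 genes, at 7, are shown with the stem in capitals.
Form of H1, H2A, H2B and H3: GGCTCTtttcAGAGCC
Form of H4: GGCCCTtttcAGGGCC
None of the 9 H4 genes with a stem-loop had the exact form.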

How the data were processed

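The authors aligned 75-nt paired-end ATAC-seq reads to mm10 (GRCm38) with STAR 2.6.1c, removed duplicates with Picard, discarded reads outside chromosomes 1 to 19, X and Y, used MACS 2.1.1.20160309 to call peaks and merged the peaks of the ZHBTc4 and 2TS22C experiments with BEDTools. The deposited list gives positions in bp only, with no score, count or value per sample. Whether peaks were called per replicate is not given in the sources used here. The study's limit of 5 kb on peak width was not applied to the list, which holds 16 wider regions. The study also removed peaks that overlapped peaks of input samples or blacklisted ones. Those filters were not applied here either, and whether the deposited list had passed them is not given.

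Distances were counted from the nearest region edge to the TSSs of all GENCODE M21 transcripts, with coordinates counted from 1. Subclusters were split at gaps above 200 kb between genes, and the gap from Hist1h2br to Hist1h2ah, 197633 bp, fell just below that limit. Motifs, tRNA genes and k-mers came from GRCm38.p6 and RefSeq. The functions for distances, motifs and k-mers were tested on simulated data. Python 3.11.15, NumPy 2.4.6, pandas 2.3.3 and SciPy 1.17.1 were used. The members and lists were chosen with earlier results of these data known. Genes were named by rule: members without a region, testis-type members, the widest and narrowest of each type and members that share a region. Sequences were shown for the widest of each type, an H2B gene without an octamer and, chosen after their values were seen, Hist1h4j, the pair of Hist1h2bc and the pairs without a region. Hist1h2be, Hist1h2bm and the named genes of other lists were also chosen after their values were seen. No test was made, since genes are not replicates of a condition. Alternatives are given in the closing section, with shares judged against a 95% Wilson interval, medians against the 95% interval from order statistics and counts within 1.5 times. Both intervals treat genes as independent, which members that share a region are not, and they served only as limits.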

Additional observations from a re-analysis of the deposited data

How the results depend on the processing

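The share of Hist1h genes with a region was 90.7%. Its 95% Wilson interval, from 80.1 to 96%, served only as a limit for the alternatives. The interval treats genes as independent, although 30 members were near a shared region, so it is no test against all genes. The share rose to 100% at a distance of at most 2 kb. There all 54 members had a region, against 77.6% of all protein-coding genes. At most 500 bp, 1 TSS per gene, a width of at least 200 bp and joining of regions less than 100 bp apart left it at 90.7%. A region over the TSS gave 85.2%, a width of at least 400 bp gave 88.9%, and the starts of RefSeq, available for 51 members, gave 92.2%. The last alternative and those at the start codon were chosen after seeing the data. Counting from the start codon gave 92.6% and moved the share of H1 genes from 83.3% to 100%. The octamer was found at 6 H2B genes when exact, at 7 in windows at the start codon, where Hist1h2be was added, and at 14 with at most 1 mismatch, a match that 20.5% of the protein-coding genes on chromosome 13 also had. The other 35 of 38 alternatives stayed within the limits set. The limits for shares by type rest on 6 to 15 genes each and are wide, so staying within them says little. The share of H1 genes fell from 83.3% to 66.7% with a region over the TSS, and also with a width of at least 400 bp. Both values still counted as within the limits. No paired analysis was possible because regions of all samples were merged, and no replicate could be left out. Width in a merged list can grow with the number of merged experiments, and depth is unknown.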
